A study of Mus musculus with 30 samples.

Results

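Lungs of lincRNA-Cox2 knockout mice were compared with lungs of lincRNA-Cox2 mutant mice, both taken 6 h after lipopolysaccharide (LPS, an endotoxin of bacteria sensed by Toll-like receptor 4). The comparison rests on 3 knockout and 3 mutant libraries, 6 of the 30 in the series, and covers every one of the 19470 intact entries of the lung table, of which 16030 carried an adjusted p-value. The knockout mice and the mutant mice were 8 weeks old, are labelled C57BL/6, and received LPS at 20 mg/kg into the peritoneum. For context, values are also given from PBS lungs of either line with 2 libraries each, from LPS spleens of either line with 3 each, and from 3 LPS lungs of wild type mice. The labels give neither the sequence that each line lacks nor how many founders it has. They do not say that libraries come from separate animals, so the p-values measure a spread between libraries. The authors' lung table also holds a mean over all its samples, so that spread may be estimated over every lung group, PBS included.

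LincRNA-Cox2 is a long noncoding RNA that macrophages and other cells make after Toll-like receptor signals, and it is transcribed near Ptgs2. Ptgs2 encodes cyclooxygenase 2, the inducible enzyme that turns arachidonic acid into the precursor of prostaglandins. Since the labels name both lines as lesions of the same noncoding RNA, the comparison asks which transcripts differ between 2 ways of disrupting 1 locus.

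The libraries differed in more than the line. The authors' mean of Xist, the noncoding RNA that silences 1 X chromosome in female cells, was 23.2 normalized counts in knockout lungs, 4510 in mutant lungs and 14.5 in wild type lungs under LPS. Ddx3y, a helicase gene on the Y chromosome, had authors' means of 1130 in knockout lungs, 4.73 in mutant lungs and 1150 in wild type lungs. Neither was called in the authors' deposited table (adjusted p 0.407 for Xist and 0.401 for Ddx3y). With means this far apart, the missing calls do not show that the groups were alike in sex. All 5 Y-linked entries were above 0, with a median of 2.06 in the authors' log2 folds, which are pulled towards 0, and of 7.39 in log2 ratios taken from the means (pseudocount 1). On the authors' scale 7 of 8 entries of the X inactivation and escape list were below 0 with a median of -0.68, none called. Line and sex therefore cannot be told apart between knockout and mutant lungs under LPS, while wild type lungs had the knockout's pattern of Xist and Ddx3y. In PBS lungs both genes were present in either line, with authors' means of Xist of 1910 in knockout and 3300 in mutant lungs, and of Ddx3y of 447 in knockout and 317 in mutant lungs. Estimated depth ran from 5.20 to 8.61 M reads in the knockout libraries and from 8.62 to 10.7 M reads in the mutant libraries. The lung label held by its markers: Sftpc, a surfactant gene of alveolar type 2 cells, had an authors' mean of 40000 in knockout and 40200 in mutant lungs, and Scgb1a1 of airway club cells 32300 and 30000. No member of the alveolar type 1, alveolar type 2 or airway lists was called in the authors' deposited table, and their medians of log2 fold were -0.23, -0.04 and -0.11.

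Of the 16030 entries tested, 39 were called at an adjusted p under 0.05 in the authors' deposited table, which is 0.243% of them. Of these, 22 were higher in knockout lungs (0.137% of those tested) and 17 were lower (0.106%). Of those with a position in the annotation, 1 lies on a sex chromosome, Heph. The part of sex in the calls was not tested. The log2 folds below are the authors' own, knockout over mutant, and their median over all tested entries was -0.01. Since the table gives group means, values per library were recovered where a mean printed to 6 decimals could arise from 1 set of whole reads only. That held for 21 of the 39 called entries in knockout lungs and for 10 in mutant lungs. Where only the knockout was resolved, its libraries are set against a mutant mean whose spread is not known. Since these entries were called from the same libraries, such a position is a description and no further support. Libraries are named A, B and C within a group by falling size factor, and the letters cannot be tied to the labelled samples.

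**Figure D1:**
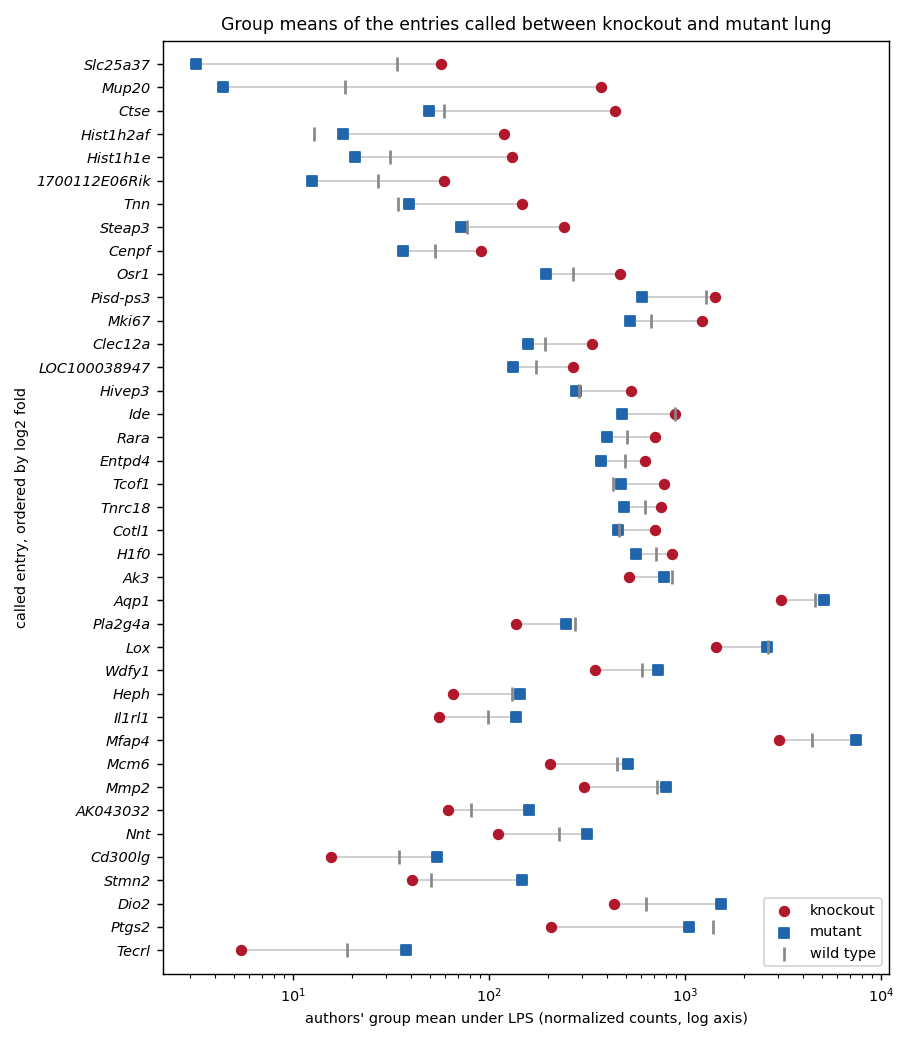
Authors' group means of the 39 called entries under LPS in normalized counts on a log axis, with knockout as red circles, mutant as blue squares and wild type as grey ticks. Entries run by log2 fold, and Slc25a37 at the top has 57.4 in knockout and 3.22 in mutant lungs while Ptgs2 near the bottom has 208 and 1058.

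LincRNA-Cox2 itself was listed at 0 in both lines. A count of 0 over the 3 libraries allows a group mean of up to 1.99 normalized counts in knockout lungs and 1.22 in mutant lungs, counting error only, and no fold between the lines was formed. Wild type lungs under LPS had 23.0, 18.6 and 49.0 normalized counts in libraries A, B and C. Neither line therefore approached the lowest wild type library.

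Ptgs2 was the called entry with the smallest adjusted p. Knockout libraries A, B and C had 184, 238 and 203 normalized counts of Ptgs2 under LPS, around an authors' mean of 208. The authors' mean was 1058 in mutant lungs and 1397 in wild type lungs, and the mutant libraries could not be resolved singly. The 3 knockout libraries lay close together and all far below the mutant mean. Ptgs2 had a log2 fold of -2.31 in the authors' deposited table (adjusted p 6.63e-22). Over wild type lungs under LPS its log2 fold there was -2.70 in the knockout (adjusted p 3.64e-31) and -0.39 in the mutant (adjusted p 0.972). In PBS lungs, which share no library with the LPS lungs, the authors' means of Ptgs2 were 23.4 in knockout and 154 in mutant lungs, a log2 fold of -2.60 (adjusted p 9.62e-14). In LPS spleens the authors' means of Ptgs2 were 65.8 in the knockout and 111 in the mutant, a log2 fold of -0.56 (adjusted p 0.763).

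The Ptgs2 promoter is shown because Ptgs2 is the nearest gene to lincRNA-Cox2 that either line expressed, 50.8 kb away. The 300 bases (250 before and 50 after the RefSeq start, chr1:150099781-150100080, GRCm38.p6, plus strand) hold 1 match to TGACG, the core of the cyclic AMP response element, read on the reverse strand as CGTCA, and 1 match to the E-box CACGTG. The matches share the letters CA. They begin at bases 14 and 17 of the 50 after the start, so downstream of it, and capitals mark them.
Ptgs2: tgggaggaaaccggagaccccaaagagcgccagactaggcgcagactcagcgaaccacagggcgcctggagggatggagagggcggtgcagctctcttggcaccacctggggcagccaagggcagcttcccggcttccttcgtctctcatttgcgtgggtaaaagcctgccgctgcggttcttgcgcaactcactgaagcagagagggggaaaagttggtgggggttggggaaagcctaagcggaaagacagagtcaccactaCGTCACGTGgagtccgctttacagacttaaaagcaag
Of 32851 RefSeq promoter windows of this length, 20.8% hold TGACG and 7.15% hold CACGTG on either strand. AP-1 sites (TGANTCA) and TATAA were searched for as well and have no match in this window. A match describes the letters and shows no binding.

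Within 1 Mb of lincRNA-Cox2, 1 further gene was called. Pla2g4a, 198 kb away, encodes the cytosolic phospholipase that frees arachidonic acid from membranes. For Pla2g4a, knockout libraries A, B and C had 122, 176 and 116 normalized counts, against an authors' mean of 249 in mutant and 275 in wild type lungs. All 3 knockout libraries lay below the mutant mean. The log2 fold was -0.83 in the authors' deposited table (adjusted p 0.0262), and under PBS -0.75 (adjusted p 1). The other tested neighbours were not called. Tpr, a nuclear pore gene 228 kb away, had authors' means of 2360 in knockout and 1880 in mutant lungs (log2 fold 0.32, adjusted p 0.624). Prg4, the lubricant proteoglycan gene 284 kb away, had 555 and 453 (log2 fold 0.23, adjusted p 0.974), and Hmcn1, a hemicentin gene 398 kb away, had 132 and 317 (log2 fold -1.08, adjusted p 0.613), all in the authors' deposited table. The annotated span of Ptgs2os, a noncoding gene, lies just left of the Ptgs2 start on the chromosome. Ptgs2os had authors' means of 1.87 in knockout and 2.51 in mutant lungs. C730036E19Rik had 1.59 and 1.85, and Pdc, a phosducin gene, had 0 and 1.06. All of these lacked an adjusted p.

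The prostanoid list holds the enzymes, receptors and transporter of prostaglandins. Of its 20 tested entries 2 fell, Ptgs2 and Pla2g4a, and none rose. Over all tested entries 0.106% were called lower and 0.137% higher. The list's median log2 fold was -0.25 against -0.01 over all tested entries. Ptgs1, the constitutive cyclooxygenase, had authors' means of 593 in knockout and 899 in mutant lungs with a log2 fold of -0.59 in the authors' deposited table (adjusted p 0.489). Ptges, the inducible prostaglandin E synthase that works downstream of Ptgs2, had authors' means of 2120 and 2200 with a log2 fold of -0.05 (adjusted p 0.988). Ptges3, a cytosolic synthase and cochaperone, had 2980 and 2390, and the prostaglandin transporter Slco2a1 had 3810 and 3730 as authors' means. Of the receptors, Ptger4 for prostaglandin E2 had authors' means of 221 and 204, and Ptgir for prostacyclin 302 and 297. Among 17 tested genes that cyclic AMP or prostaglandin E2 is known to move, 1 was called, Il1rl1, beside 0.243% of all tested entries. The median log2 fold of the 17 was -0.13.

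No gene of the inflammatory lists was called between the lines. This covers 22 tested entries of the cytokine list, 33 of the chemokine list, 30 of the type I interferon list, 22 of the NF-kB list and 20 of the acute phase list. Their medians of log2 fold were -0.26, 0.19, -0.19, -0.03 and 0.16. Over all tested entries 0.243% were called, so lists of these sizes can lack a call without being alike between the lines. Il1b, the fever cytokine, had authors' means of 7520 in knockout and 5300 in mutant lungs (log2 fold 0.48 in the authors' deposited table, adjusted p 0.828). Il1rn, which blocks its receptor, had authors' means of 10600 and 9080. Cxcl10, a chemokine for activated T cells, had authors' means of 29500 and 33200, and its relative Cxcl9 had 20100 and 11100 (log2 fold 0.77, adjusted p 0.786). Rsad2, the antiviral enzyme viperin, had authors' means of 19500 and 35400 (log2 fold -0.81, adjusted p 0.58), and Ifit3, an interferon-induced RNA sensor partner, 25300 and 26200. Nfkbia, the feedback inhibitor of NF-kB, had 11100 and 11400, Icam1, an adhesion molecule, 16600 and 20500, Lcn2, an iron-trapping antimicrobial protein, 38600 and 35300, and complement C3 24800 and 21600 as authors' means. The glucocorticoid list (12 tested, median -0.14) and the circadian clock list (15 tested, median 0.01) had no called member either.

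Chromosome 1, which carries lincRNA-Cox2, held 9 of the 36 called genes with a distinct symbol and a position, 25%, and 892 of 15169 tested genes with one, 5.88%. Of the 9, Ptgs2 and Pla2g4a were described above. Ctse, Steap3, Tnn, Mcm6 and Wdfy1 are more distant from the locus, and these 5 were also called in PBS lungs.

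**Figure D2:**
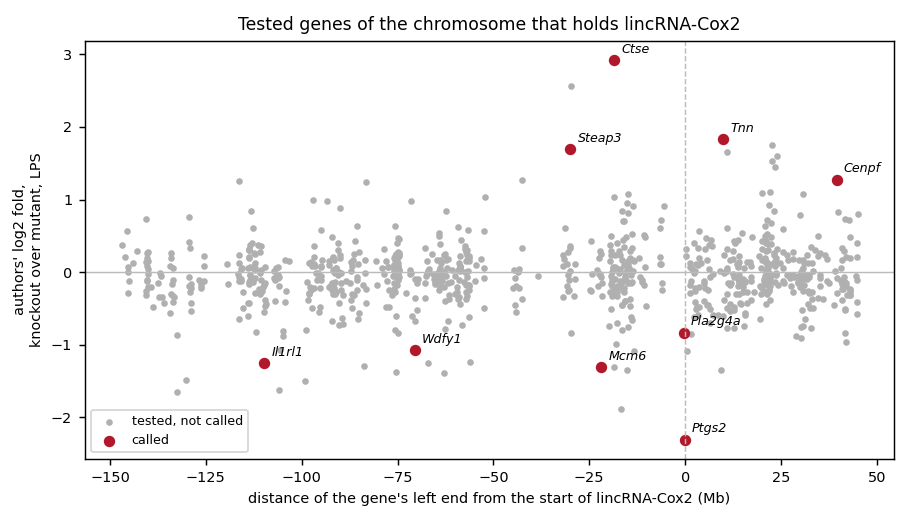
Authors' log2 fold, knockout over mutant lung under LPS, of tested chromosome 1 genes against the distance of the gene's left end from the start of lincRNA-Cox2 in Mb. Red points are the 9 called genes, from Il1rl1 at -110 Mb to Cenpf at 39.5 Mb, and grey points are tested genes that were not called.

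Tnn encodes tenascin N, an extracellular matrix glycoprotein, and starts 9.92 Mb from lincRNA-Cox2. Knockout libraries A, B and C had 183, 143 and 118 normalized counts of Tnn, and mutant libraries A, B and C had 39.4, 41.3 and 36.7. The lowest knockout library was far above the highest mutant one, and the mutant libraries were nearly alike. Tnn had a log2 fold of 1.83 in the authors' deposited table (adjusted p 0.000193). Under PBS the authors' means of Tnn were 627 in knockout and 69.9 in mutant lungs, a log2 fold of 2.97 (adjusted p 1.25e-10).

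Steap3 encodes a ferrireductase of endosomes that readies iron for transport, and lies 30.0 Mb from the locus on the other side. For Steap3, knockout libraries A, B and C had 277, 235 and 213 normalized counts, against an authors' mean of 72.2 in mutant and 77.8 in wild type lungs. Every knockout library exceeded both means. The log2 fold of Steap3 was 1.69 under LPS (adjusted p 1.49e-07) and 1.69 under PBS in the authors' deposited table (adjusted p 1.26e-05).

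Ctse encodes cathepsin E, an aspartic protease, and has 2 entries in the table whose folds have opposite signs. The larger entry had authors' means of 441 in knockout, 49.8 in mutant and 59.3 in wild type lungs, and mutant libraries A, B and C had 49.3, 36.7 and 63.6 normalized counts. Its log2 fold was 2.93 (adjusted p 5.4e-08) under LPS, and 2.67 (adjusted p 0.000458) under PBS, in the authors' deposited table. The smaller Ctse entry had 21.7, 15.3 and 12.0 normalized counts in knockout libraries A, B and C, and 41.4, 40.1 and 56.2 in mutant libraries A, B and C. In that entry all knockout libraries were below all mutant libraries, with a log2 fold of -1.37 in the authors' deposited table (adjusted p 0.0969), so it did not pass the test. The 2 entries share 1 gene position in the annotation, and how the authors divided its reads is not given in the sources used here. In LPS spleens the larger Ctse entry had authors' means of 1720 in the knockout and 1960 in the mutant (log2 fold -0.13, adjusted p 0.966).

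Mcm6 and Wdfy1 were lower in knockout lungs. Mcm6 encodes a subunit of the replicative helicase and lies 21.8 Mb from the locus. For Mcm6, knockout libraries A, B and C had 190, 228 and 199 normalized counts, against an authors' mean of 516 in mutant and 450 in wild type lungs. The knockout libraries all lay far below the mutant mean. The log2 fold of Mcm6 was -1.30 under LPS (adjusted p 4.41e-06) and -1.48 under PBS in the authors' deposited table (adjusted p 6.57e-05). Mcm6 was the 1 called member of the 13 tested genes of the helicase and origin list, beside 0.243% of all tested entries. The other 12 were not called, and Mcm3, the other of the list's 2 most abundant members, had authors' means of 322 and 340. Wdfy1, an endosomal adaptor of Toll-like receptors, had authors' means of 347 in knockout, 735 in mutant and 609 in wild type lungs. Its log2 fold was -1.07 (adjusted p 4.16e-09) under LPS and -1.10 (adjusted p 3.14e-06) under PBS in the authors' deposited table.

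Outside chromosome 1, Slc25a37, 1700112E06Rik and Pisd-ps3 were called both under LPS and under PBS. Slc25a37 encodes mitoferrin 1, which carries iron into mitochondria, and has 2 entries. In the smaller entry, knockout libraries A, B and C had 54.2, 68.1 and 49.9 normalized counts, mutant libraries A, B and C had 4.93, 2.29 and 2.44, and wild type libraries A, B and C had 31.4, 30.3 and 40.4. The mutant libraries stood apart from both other groups. The log2 fold of this Slc25a37 entry, knockout over mutant, was 3.70 in the authors' deposited table (adjusted p 7e-10), and mutant over wild type it was -2.97 (adjusted p 1.3e-05). The larger Slc25a37 entry had authors' means of 1220 in knockout and 1170 in mutant lungs, with a log2 fold of 0.06 (adjusted p 0.983). Entpd4, a nucleotidase gene of the Golgi and its neighbour on chromosome 14, had authors' means of 629 and 372 in its called entry (log2 fold 0.75, adjusted p 0.0332). Its second entry had 103 and 61.4 (log2 fold 0.74, adjusted p 0.151), both in the authors' deposited table.

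1700112E06Rik, an uncharacterized gene also on chromosome 14, had 49.4, 58.4 and 69.8 normalized counts in knockout libraries A, B and C, and 7.88, 16.1 and 13.4 in mutant libraries A, B and C. The groups did not overlap, and the wild type libraries, at 26.8, 26.4 and 28.2, lay between them. Its log2 fold was 2.13 (adjusted p 1.69e-05) under LPS and 1.76 (adjusted p 0.0447) under PBS in the authors' deposited table. Pisd-ps3, a pseudogene of phosphatidylserine decarboxylase, had authors' means of 1421 in knockout, 602 in mutant and 1277 in wild type lungs (log2 fold 1.2 in the authors' deposited table, adjusted p 0.0198). Reads of such a copy cannot be assigned with certainty. Ide, the insulin-degrading enzyme, had authors' means of 890 in knockout, 477 in mutant and 895 in wild type lungs. The log2 fold of Ide was 0.89 (adjusted p 0.00673) for knockout over mutant and -0.90 (adjusted p 0.0154) for mutant over wild type in the authors' deposited table.

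Nnt encodes the mitochondrial transhydrogenase that supplies NADPH, and a deletion in it is known in the C57BL/6J substrain. For Nnt, knockout libraries A, B and C had 113, 103 and 120 normalized counts, against authors' means of 317 in mutant and 229 in wild type lungs. The knockout libraries differed little from each other and all lay below the mutant mean. Nnt had a log2 fold of -1.47 in the authors' deposited table (adjusted p 4.41e-06). The authors' fold was -1.03 in PBS lungs (adjusted p 0.294), and in LPS spleens -1.08 (adjusted p 0.0869).

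**Figure D3:**
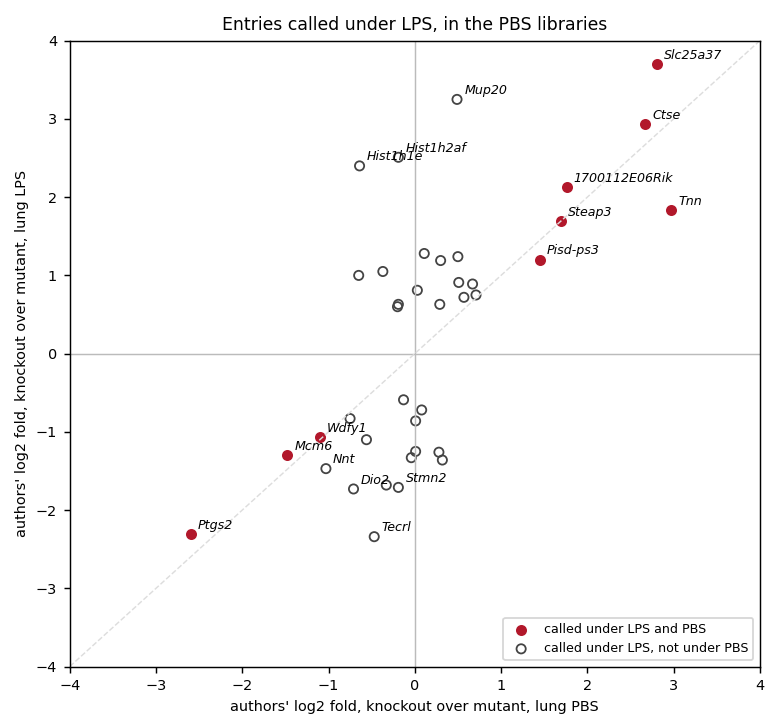
Authors' log2 folds of the 39 entries called under LPS, knockout over mutant lung, with PBS libraries on the horizontal and LPS libraries on the vertical axis and a dashed line where both are equal. Filled points are the 9 entries also called under PBS, which lie in the quadrants where both folds have 1 sign, and open points are the other 30, whose median absolute fold was 0.33 under PBS.

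The PBS libraries are separate from the LPS libraries, but the spread behind the adjusted p-values may be estimated from both. Between knockout and mutant PBS lungs, the authors' deposited table calls 10 of 19131 entries, 0.0523%. Of the 39 entries called under LPS, 28 had the same sign under PBS, 71.8%, against 51.8% of all tested entries, and 9 were called there too, all with the same sign. The 10th PBS call was Chil1, a chitinase-like protein, also on chromosome 1. Its authors' means were 635 in knockout and 3661 in mutant PBS lungs, and 12247 and 14790 in LPS lungs, with log2 folds of -2.44 (adjusted p 3.04e-13) and -0.27 (adjusted p 0.858). In LPS spleens 21 of 11871 entries were called, 0.177%, and of 38 lung calls with a spleen value 21 had the same sign, 55.3%, against 47.3% of all tested entries.

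Of 31 tested entries of the replication-dependent histones, the core and linker histones made in S phase, 2 were called, beside 0.243% of all tested entries. Hist1h2af, a histone H2A gene, had 51.8, 126 and 179 normalized counts in knockout libraries A, B and C, and 8.87, 20.6 and 24.4 in mutant libraries A, B and C. The lowest knockout library was above the highest mutant library, and both groups varied widely within themselves. The log2 fold was 2.51 in the authors' deposited table (adjusted p 0.00026). Hist1h1e, a linker histone gene, had 97.6, 146 and 150 normalized counts in knockout libraries A, B and C, and 5.91, 16.1 and 40.3 in mutant libraries A, B and C. The groups did not overlap, although mutant library C stood well above the other mutant libraries. Hist1h1e had a log2 fold of 2.40 in the authors' deposited table (adjusted p 0.00192). Without mutant library C the log2 ratio of the Hist1h1e library means was 3.46, against 2.6 with it. Hist1h1d, another linker histone, had 19.3, 43.1 and 43.9 in the knockout libraries and 2.96, 5.73 and 13.4 in the mutant libraries. It did not pass the test, with a log2 fold of 2.01 in the authors' deposited table (adjusted p 0.0836).

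The other histones are given as levels. Of the 66 genes of the list 58 were found, as 60 entries, 57 with a higher authors' mean in knockout lungs and 3 with a higher one in mutant lungs, but only 31 had an adjusted p. Over these 31 the median log2 fold was 1.16, beside -0.01 over all tested entries. The share of all entries with a higher mean in knockout lungs was not counted. Hist1h1c, one of the 2 most abundant, had authors' means of 604 in knockout and 336 in mutant lungs (log2 fold 0.82 in the authors' deposited table, adjusted p 0.187), and Hist1h2bc had 543 and 410 (log2 fold 0.40, adjusted p 0.62). Histone genes are near-identical copies, so reads may be divided among them with error. Under PBS the median of the same 31 was -0.34, and in LPS spleens, where all 31 were below 0, it was -1.34. Hist1h2af in spleen had authors' means of 240 in the knockout and 1530 in the mutant, a log2 fold of -2.21 in the authors' deposited table (adjusted p 0.0379), which is opposite to lung. The difference between tissues was not itself tested. Of the histone variant genes whose messages carry a poly(A) tail, 1 of 9 tested rose, beside 0.137% of all tested entries. This was the linker histone gene H1f0, with authors' means of 862 and 565 (log2 fold 0.60 in the authors' deposited table, adjusted p 0.00512).

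Replication-dependent histone messages are known to end in a stem-loop in place of a poly(A) tail, and the libraries were made with mRNA isolation kits. The stem-loop was searched for by 1 set pattern of 16 bases in the last 150 bases of GENCODE transcripts. It was found for 6 of the 31 tested histone entries, 19.4%, and for 3 of 14638 other tested entries, 0.0205%. The annotated models of Hist1h2af and Hist1h1e have no match in that window. A missing match depends on the pattern and on where the annotated model ends, and does not show that a gene lacks the element. The loops of a histone H3 and a histone H4 gene are shown as examples of the element, with capitals for the 6 bases of each arm. Hist1h3b lies at chr13:23752820-23752835 and Hist1h4h at chr13:23531458-23531473, both on the plus strand of GRCm38.
Hist1h3b: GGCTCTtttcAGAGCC
Hist1h4h: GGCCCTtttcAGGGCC
Hist1h3b had authors' means of 9.7 in knockout and 3.1 in mutant lungs (log2 fold 1.35 in the authors' deposited table, adjusted p 0.658). Hist1h4h had authors' means of 27.7 and 10.3 (log2 fold 1.33, adjusted p 0.342).

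Of 26 tested genes of the cell cycle list, 2 rose and none fell, beside 0.137% called higher and 0.106% called lower over all tested entries. Mki67, the marker of dividing cells, had authors' means of 1232 in knockout, 525 in mutant and 673 in wild type lungs, with a log2 fold of 1.19 in the authors' deposited table (adjusted p 0.0136). Cenpf, a kinetochore gene, had 62.6, 117 and 95.7 normalized counts in knockout libraries A, B and C, and 26.6, 31.0 and 52.6 in mutant libraries A, B and C. The groups of Cenpf were close to touching, since knockout library A was 62.6 and mutant library C 52.6. The log2 fold was 1.28 in the authors' deposited table (adjusted p 0.0333). The list's median log2 fold was 0.69 under LPS, 0.08 under PBS and -0.72 in LPS spleens. Pcna, the sliding clamp of DNA polymerase and, with Mki67, one of the 2 most abundant members, had authors' means of 884 and 948 (log2 fold -0.10, adjusted p 0.93). Against wild type under LPS the list's median was 0.04 for the knockout and -0.52 for the mutant, with the wild type libraries shared by both. The called Mki67 had log2 folds against wild type of 0.85 for the knockout and -0.35 for the mutant. Cenpf had 0.74 and -0.53, and none of these folds against wild type was called.

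**Figure D4:**
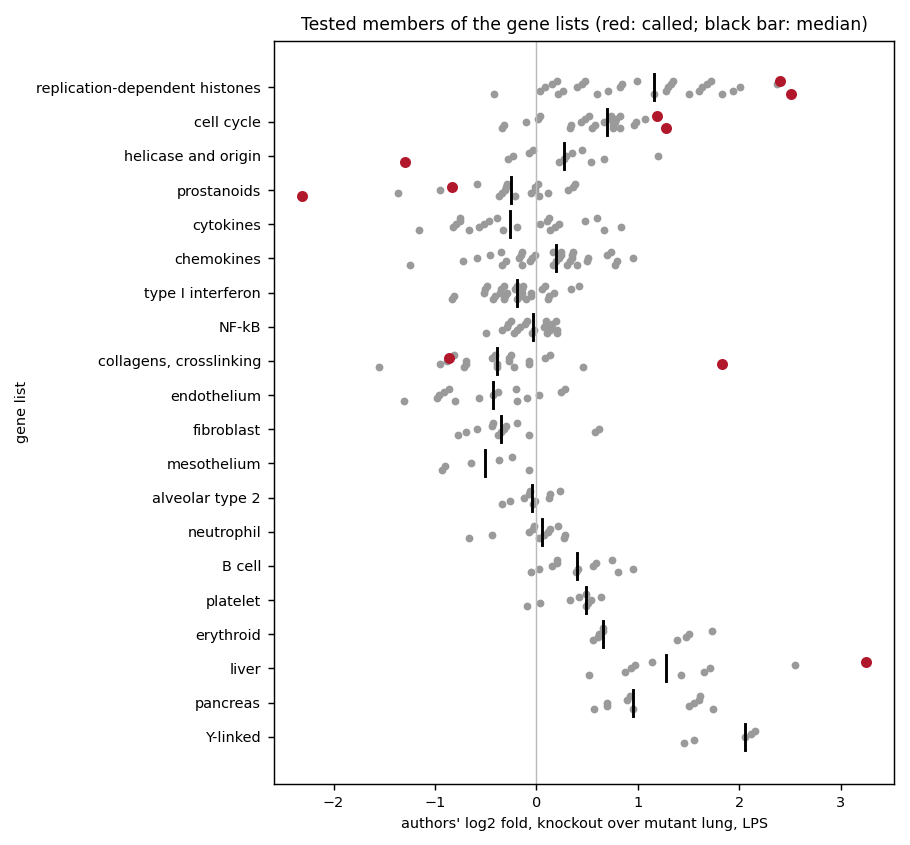
Authors' log2 folds, knockout over mutant lung under LPS, of the tested members of 20 gene lists, with called members in red and the median of each list as a black bar. Histones (median 1.16) and cell cycle genes (median 0.69) lie mostly above 0, collagens (median -0.39) and endothelial markers (median -0.43) mostly below, and most members of every list were not called.

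Mmp2, a gelatinase of fibroblasts, had 347, 309 and 263 normalized counts in knockout libraries A, B and C, against an authors' mean of 804 in mutant and 721 in wild type lungs. All 3 knockout libraries were below both means, and the log2 fold was -1.33 in the authors' deposited table (adjusted p 0.0332). Lox, the lysyl oxidase that crosslinks collagen and elastin, had authors' means of 1443 in knockout and 2638 in mutant lungs (log2 fold -0.86, adjusted p 0.00487). Mfap4, a microfibril protein of elastic fibres, had authors' means of 3015 and 7466 (log2 fold -1.26, adjusted p 0.0153). Under PBS the log2 folds were -0.04 for Mmp2, 0.01 for Lox and 0.28 for Mfap4, each at an adjusted p of 1 by the authors' deposited table. Of 22 tested entries of the collagen and crosslinking list, Lox fell, Tnn rose and the other 20 were not called, with a median of -0.39. Of 24 tested entries of the matrix protease list, Mmp2 fell, Ctse rose, and the median was -0.07. Over all tested entries 0.137% were called higher and 0.106% lower. The collagen IV genes Col4a1 and Col4a2 had authors' means of 17500 and 14300 in knockout lungs, against 18400 and 13500 in mutant lungs.

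Aqp1, the water channel of lung vessels, had authors' means of 3103 in knockout and 5142 in mutant lungs (log2 fold -0.72 in the authors' deposited table, adjusted p 0.0367). Cd300lg, an adhesion molecule of endothelium, had 15.7, 11.1 and 19.9 normalized counts in knockout libraries A, B and C, and 72.9, 35.5 and 55 in mutant libraries A, B and C. The groups did not overlap, and the log2 fold was -1.68 (adjusted p 0.00658). No member of the endothelium list, which does not hold Aqp1 or Cd300lg, was called: of 15 tested, 12 were below 0 with a median of -0.43, and their summed authors' means were 34742 in knockout and 39241 in mutant lungs. Fibroblast markers had a median of -0.35 (13 tested, summed means 16500 and 21482) and mesothelial markers -0.51 (6 tested, summed means 2524 and 3719), with no member of either called. Whole lung was sequenced, so fewer cells of a type and less RNA per cell cannot be told apart, and the part of these markers in the calls was not tested.

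Dio2, the deiodinase that activates thyroid hormone, had 497, 449 and 369 normalized counts in knockout libraries A, B and C, against authors' means of 1536 in mutant and 636 in wild type lungs. The knockout libraries were all far below the mutant mean, and the log2 fold was -1.73 in the authors' deposited table (adjusted p 0.00166). Dio2 was the 1 called gene among 10 tested of the thyroid hormone list, whose median was -0.48, beside 0.243% called over all tested entries. The authors' PBS means of Dio2 were 11.0 in knockout and 20.4 in mutant lungs. Il1rl1, the receptor of interleukin 33, had authors' means of 55.8 in knockout and 138 in mutant lungs (log2 fold -1.25, adjusted p 0.0419). Stmn2, a microtubule regulator of neurons, had 22.9, 43.1 and 55.8 normalized counts in knockout libraries A, B and C, against an authors' mean of 147 in mutant and 50.6 in wild type lungs (log2 fold -1.71, adjusted p 0.0306). Each knockout library of Stmn2 lay below the mutant mean. Heph, a copper-dependent ferroxidase on the X chromosome, had 61.4, 88.9 and 45.9 in the knockout libraries. The authors' means of Heph were 145 in mutant and 131 in wild type lungs (log2 fold, knockout over mutant, -1.10, adjusted p 0.0277). Ak3, a mitochondrial adenylate kinase, had authors' means of 519 and 784 (log2 fold -0.59, adjusted p 0.0304), and the transcript AK043032 had 61.7 and 160 (log2 fold -1.36, adjusted p 0.00487).

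Tecrl, a reductase-like gene expressed in heart, was far higher in 1 mutant library than in the rest. Knockout libraries A, B and C had 4.82, 5.56 and 5.98 normalized counts, and mutant libraries A, B and C had 79.8, 21.8 and 12.2. The groups did not overlap, but mutant library A was several times the others. The log2 fold was -2.34 in the authors' deposited table (adjusted p 0.0262), and without mutant library A the log2 ratio of the library means was -1.48, against -2.59 with it.

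Osr1, a zinc finger factor of mesenchyme, had authors' means of 468 in knockout, 196 in mutant and 268 in wild type lungs (log2 fold 1.24 in the authors' deposited table, adjusted p 9.47e-08). Clec12a, an inhibitory lectin receptor of myeloid cells, had 261, 329 and 413 normalized counts in knockout libraries A, B and C, against authors' means of 159 in mutant and 193 in wild type lungs. All knockout libraries of Clec12a were above the mutant mean, with a log2 fold of 1.05 (adjusted p 0.00125). LOC100038947, a gene without a position here, had 208, 284 and 319 in the knockout libraries, against an authors' mean of 133 in mutant lungs (log2 fold 1.00, adjusted p 0.0332). Rara, the retinoic acid receptor alpha gene, had authors' means of 706 and 399 (log2 fold 0.81, adjusted p 0.0296). Hivep3, a zinc finger gene, had authors' means of 533 and 279 (log2 fold 0.91, adjusted p 0.0419), and Tcof1, needed for ribosomal RNA synthesis, 784 and 473 (log2 fold 0.72, adjusted p 0.00752). Cotl1, which binds actin, had authors' means of 706 and 455 (log2 fold 0.63, adjusted p 0.0332), and Tnrc18 had 760 and 489 (log2 fold 0.63, adjusted p 0.0262).

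Mup20, a major urinary protein made mainly by male liver, had the widest spread among the 9 called entries resolved per library in both groups. Knockout libraries A, B and C had 851, 20.8 and 243 normalized counts, mutant libraries A, B and C had 0.986, 1.15 and 11.0, and wild type libraries A, B and C had 17.6, 0.979 and 36.7. Knockout and mutant did not overlap, while knockout library B lay within the wild type range. Mup20 had a log2 fold of 3.25 in the authors' deposited table (adjusted p 0.0332), and the log2 ratio of library means ranged from 4.63 without knockout library A to 7.49 without mutant library C. No other liver gene was called, but all 14 entries of the liver list, Mup20 included, had higher means in knockout lungs, with summed authors' means of 6411 in knockout, 1718 in mutant and 958 in wild type lungs. Alb, the albumin gene, had authors' means of 2460 in knockout and 462 in mutant lungs and no adjusted p. Pancreas genes behaved likewise, 12 of 12 with a higher mean and summed means of 258 and 80.8. So did skeletal muscle genes, 12 of 12 with summed means of 1441 and 233. Only 3 of these 12 skeletal muscle entries were tested, and their median log2 fold was 1.54 under LPS and 2.41 under PBS. Over all tested entries 49.1% had a log2 fold above 0 under LPS. The counts of 14 and 12 compare group means and take in untested entries, and the like share over all entries was not counted. The sums of these lists were not resolved per library. Heart genes (summed means 3345 and 1933), brown fat genes (1277 and 805) and thymus genes (94.8 and 61.5) had higher sums in knockout lungs too, and no called member. Whether these transcripts bear on the other calls was not tested. Without the members of these lists 38 calls remain, since Mup20 is their 1 called member.

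Blood cell markers gave no call. All 9 tested erythroid entries were above 0, with a median of 0.66 and summed authors' means of 90388 in knockout and 57555 in mutant lungs. Hba-a2, an alpha globin gene, had authors' means of 32609 and 20446 in its larger entry (log2 fold 0.66 in the authors' deposited table, adjusted p 0.398). Platelet markers had a median of 0.49 (9 tested) and B cell markers of 0.40 (12 tested), while neutrophil (12 tested), alveolar macrophage (9 tested), plasma cell (7 tested), T cell (13 tested), dendritic cell (10 tested) and natural killer cell markers (10 tested) had medians of 0.05, -0.12, 0.04, -0.10, -0.15 and -0.20. S100a9, a granule protein of neutrophils, had authors' means of 9250 and 7510 (log2 fold 0.28, adjusted p 0.933). The part of blood cell markers in the calls was not tested. Smooth muscle markers had a median of 0.03 (7 tested).

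**Figure D5:**
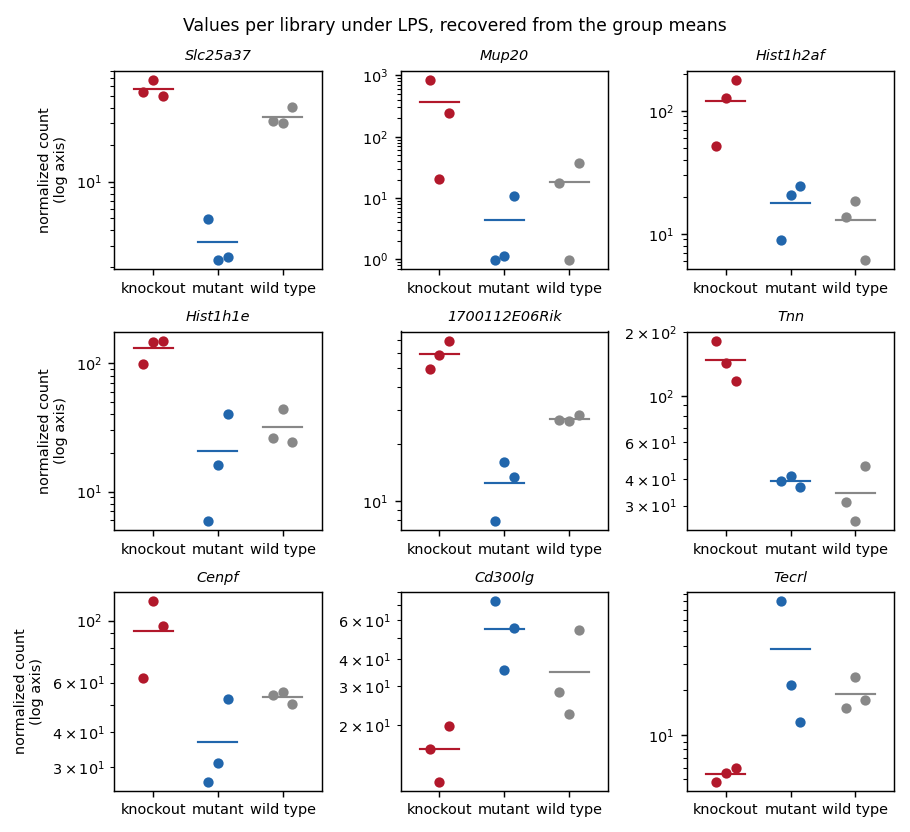
Normalized counts per library on log axes for the 9 called entries with 1 solution in both groups, with knockout left, then mutant, then wild type, and a line at each group mean. Knockout and mutant points do not overlap in any of the 9 panels, and the widest spreads are those of Mup20 in knockout lungs (20.8 to 851) and Tecrl in mutant lungs (12.2 to 79.8).

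In all, 33 entries could be resolved per library in both groups, 9 of them called and 24 not. The groups did not overlap in 9 of the 9 called entries and in 18 of the 24 others. Across the 33 that is 81.8%. Entries printed to 6 decimals are nearly all ones that the authors called in some lung comparison, so this share does not describe lung genes at large.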

How the data were processed

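Lung and spleen libraries were prepared from mRNA by kit, as the labels' protocols state. The submitters' processing notes list STAR 2.5.3a, Bowtie2, DESeq2, bedtools and SAMtools, and mm10, but no order or settings. Per the file headers, the authors' deposited lung table gives group means of DESeq2-normalized counts (a signal), log2 folds, adjusted p-values (treated as a score) and call marks. These marks end at an adjusted p of 0.0996 here; calls in the text use 0.05. A fit on counts was planned should the table hold them. It holds means only, so the authors' DESeq2 comparison was used. Of 19476 lung lines, 6 broken ones were left out, and of 18850 spleen lines, 5; 1026 spleen symbols were rejoined. An entry without an adjusted p counts as not tested, 531 entries have a repeated symbol, and 25 symbols turned into dates stay unnamed. Positions came from GENCODE M21 and RefSeq synonyms (92.7% of entries), and promoters from RefSeq.

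Group means of 184 entries are written to 6 decimals, the others to 3 significant digits. One read in 1 library adds a fixed step to a group mean, and whole multiples of 3 steps explained the 25 lowest such means in each LPS group, where the next best steps explained 8 in knockout, 16 in mutant and 5 in wild type lungs. Means up to 600 were solved, and only those with 1 solution are given: 101 of 133 in knockout, 37 of 135 in mutant and 85 of 131 in wild type lungs. The solver was tested on simulated data. This was chosen after seeing the data. Depth is the summed means times the size factor, and 0 counts as fewer than 3 reads over the group. Intervals and floors cover counting error only.

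Named genes are lincRNA-Cox2, Ptgs2, called entries with a distinct symbol and a mean of at least 10 (at most 20 per direction), called members and, for lists described in detail, the 2 most abundant members of the 40 lists, Xist, Ddx3y and neighbours within 1 Mb; other genes, such as Hist1h1d, Ptgs1, Ptges, Ptger4, Ptgir, Chil1, Slc25a37, Entpd4, Hist1h3b, Hist1h4h and the second entries, were chosen after their values were seen. Members and lists were chosen with earlier results of these data known. Python 3.11.15 with numpy 2.4.6 and pandas 2.3.3 was used. The strand of counting is not given in the sources used here.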

Additional observations from a re-analysis of the deposited data

How the results depend on the processing

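The count of 39 calls became 82 at an adjusted p under 0.1, 20 at one under 0.01 and 26 with an absolute log2 fold of at least 1. It was 39 with a mean of at least 10, 35 without repeated symbols and 38 without X and Y. Over these 6 settings the share with the same sign under PBS ran from 68.6% to 76.9%. Alternatives chosen after seeing the data gave 38 without genes of other organs and 35 without cell cycle and histone genes. Of 117 log2 folds recomputed from group means, none changed sign and 3 moved by over 1.5 times: Mup20 to 6.12 with a pseudocount of 1 or 6.13 after centring, and Slc25a37 to 2.35 with a pseudocount of 10. Centring on the median over tested entries shifted values by 0.01. Of 80 list medians, 5 moved: as log2 ratios of group means the Y-linked list gave 7.39, liver 1.93 and pancreas 1.69, and with a mean of at least 10 cytokines gave -0.08 and thymus 1.13. A further 1, the clock list, went from 0.01 to 0.00 as a log2 ratio of group means. Leaving out 1 library was possible for 9 called entries, as log2 ratios of library means: Mup20 gave 4.63 to 7.49, Tecrl -3.00 to -1.48 and Hist1h1e 2.18 to 3.46, lowest without knockout library A, mutant library C and mutant library A, highest without mutant libraries C, A and C. The other 6 moved by at most 1.33 times. Counts of calls could not be recomputed without a library, since reads of all entries were not used here. No paired analysis was possible because the labels number every library differently, so no number is shared between groups, and the table gives group means.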
